A study of Drosophila melanogaster with 12 samples.

Results

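The genes described here encode protein subunits of the mitochondrial ribosome of Drosophila melanogaster, and their RNA was measured in testes of 4 genotypes. They were chosen by name: a probe set had to carry a single gene symbol beginning with mRpL or mRpS and a digit in the platform annotation. This gave 71 probe sets for 69 of the 11982 genes measured. Of these genes, 44 are named for the large subunit (mRpL) and 25 for the small subunit (mRpS). Large-subunit and small-subunit genes are told apart below by these names alone. mRpL47 and mRpS11 had 2 probe sets each, and the one with the higher mean log2(intensity + 16) over all arrays stood for the gene. Of the 73 mRpL and mRpS symbols in the RefSeq gene table, mRpL34, mRpL37, mRpL53 and mRpS10 were not analysed here.

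The tested genotypes were aly (aly2/aly5P), sa (sa1/sa2) and bam (bam1/bamΔ86), each a combination of a pair of mutant alleles of one gene, and they were set against yw (y,w), a strain with the eye and body colour mutations y and w. The labels do not say whether the mutants also carried y or w. All flies were 1 day old, each RNA sample was pooled from about 200 pairs of testes, and each genotype had 3 biological replicates, each on its own Affymetrix Drosophila Genome 2.0 array. Male germ cells without bam, which ends the spermatogonial divisions, keep dividing and do not become spermatocytes. The genes aly and sa are needed for the late spermatocyte transcription programme, and mutant germ cells of both stop as mature primary spermatocytes, while yw testes go on to spermatids and sperm. aly encodes a component of the testis meiotic arrest complex, and sa encodes a testis form of a TFIID subunit.

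Mitochondrial ribosomes translate the few messages encoded by mitochondrial DNA, which specify core subunits of the respiratory chain and ATP synthase. Their own proteins are encoded in the nucleus, made in the cytosol and imported, and many have counterparts in bacterial ribosomes while others are found only in mitochondria. In the fly male germ line, mitochondria multiply in spermatogonia and spermatocytes and then fuse in round spermatids to the nebenkern, which unfolds and elongates along the sperm tail.

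The deposited intensities ran from 9.35 to 25799, with array medians of 44.7 to 56.1. All 69 mitoribosomal genes lay at or above the median brightness of the genes on the array, with means between 9.04 and 11.61 on the log2(intensity + 16) scale against a median of 7.66 for all genes. Spermatid markers (7 genes) summed to an intensity of 28308 to 29431 in aly, 32213 to 39954 in sa, 381 to 453 in bam and 65700 to 71772 in yw. These sums do not count spermatids, as the 7 genes differed among themselves. Their log2 differences from yw ran from -4.70 to -0.53 in aly and from -2.19 to -0.58 in sa, and 2 had a mean under 50 in aly. Against bam, 5 were called higher in aly and 7 in sa, where 16.3% and 20.5% of all genes were. Spermatocyte markers (8 genes) summed to 48057 to 52606 in aly, 18974 to 20408 in sa, 500 to 589 in bam and 20982 to 24170 in yw. Spermatogonial and stem cell markers (5 genes) summed to 1041 to 1072 in aly, 585 to 612 in sa, 6148 to 6939 in bam and 119 to 169 in yw. Each of the last 2 lists holds a gene mutated in this study. Without sa, the spermatocyte sums were 41179 to 44990 in aly, 18861 to 20312 in sa, 474 to 567 in bam and 19803 to 22655 in yw, so that sa and yw overlapped. Single genes did not all match: 3 of the 8 spermatocyte markers were called higher and 3 lower in sa than in yw, sa itself among the lower. Without bam, the spermatogonial sums were 421 to 469 in aly, 275 to 303 in sa, 5199 to 5845 in bam and 83 to 103 in yw. Single markers reached the low end of the scale, such as ovo of the germ line stem cells and spermatogonia at 12.2 to 13.8 in yw and the sperm tail gene dj at 15.1 to 17.2 in bam. Of the mutated genes, sa had 96.2 to 112 in the arrays labelled sa and 1179 to 1518 in yw, aly had 132 to 148 in the arrays labelled aly and 83.7 to 89.4 in yw, and bam had 948 to 1174 in the arrays labelled bam and 36.5 to 67.2 in yw. The position of these probe sets within the mutated genes is unknown here, so they check the labels only in part.

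Markers of some somatic tissues differed between some of the genotypes too. Testis muscle markers (6 genes) summed to 1499 to 1999 in aly, 1586 to 2413 in sa, 9906 to 11223 in bam and 1751 to 2429 in yw. All 6 were called higher than yw in bam, and 0 were called against yw in aly or sa. Accessory gland markers (7 genes) summed to 5215 to 7567 in aly, 9023 to 19953 in sa, 18798 to 72427 in bam and 10095 to 57306 in yw, with the highest yw sum in replicate 2. Of these 7, 3 were called lower than yw in aly, and 0 were called against yw in sa or bam. Fat body markers (4 genes) summed to 242 to 418 in aly, 449 to 780 in sa, 1003 to 2465 in bam and 1873 to 3399 in yw, and 2 of the 4 were called lower than yw in aly and 2 in sa. Cyst cell markers (5 genes) summed to 587 to 733 in aly, 625 to 694 in sa, 1133 to 1231 in bam and 332 to 546 in yw. Hub markers (3 genes) summed to 101 to 132 in aly, 131 to 152 in sa, 193 to 243 in bam and 147 to 256 in yw. Hemocyte markers (4 genes) summed to 236 to 338 in aly, 198 to 270 in sa, 341 to 386 in bam and 191 to 239 in yw. The part of these tissues in the results was not tested. Because each sample was a whole organ, fewer cells of a type and less RNA per cell cannot be told apart.

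On the deposited scale, most mitoribosomal transcripts were higher in testes of each of the 3 mutants than in yw testes. The median over the 69 genes of log2(intensity + 16) was 11.18, 11.31 and 11.15 in the 3 aly arrays, 10.63, 10.78 and 10.93 in sa, 10.75, 10.92 and 10.87 in bam, and 9.51, 8.96 and 9.28 in yw. The aly arrays stood highest, sa and bam overlapped, and the yw arrays stood lowest and apart from the rest. The yw arrays also differed most among themselves, with a mean SD over the 69 genes of 0.30 on the log2 scale, against 0.11 in aly, 0.22 in sa and 0.13 in bam. Replicate 2 was the lowest yw array in 67 of the 69 genes, and replicate 3 was the highest sa array in 61.

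**Figure D1:**
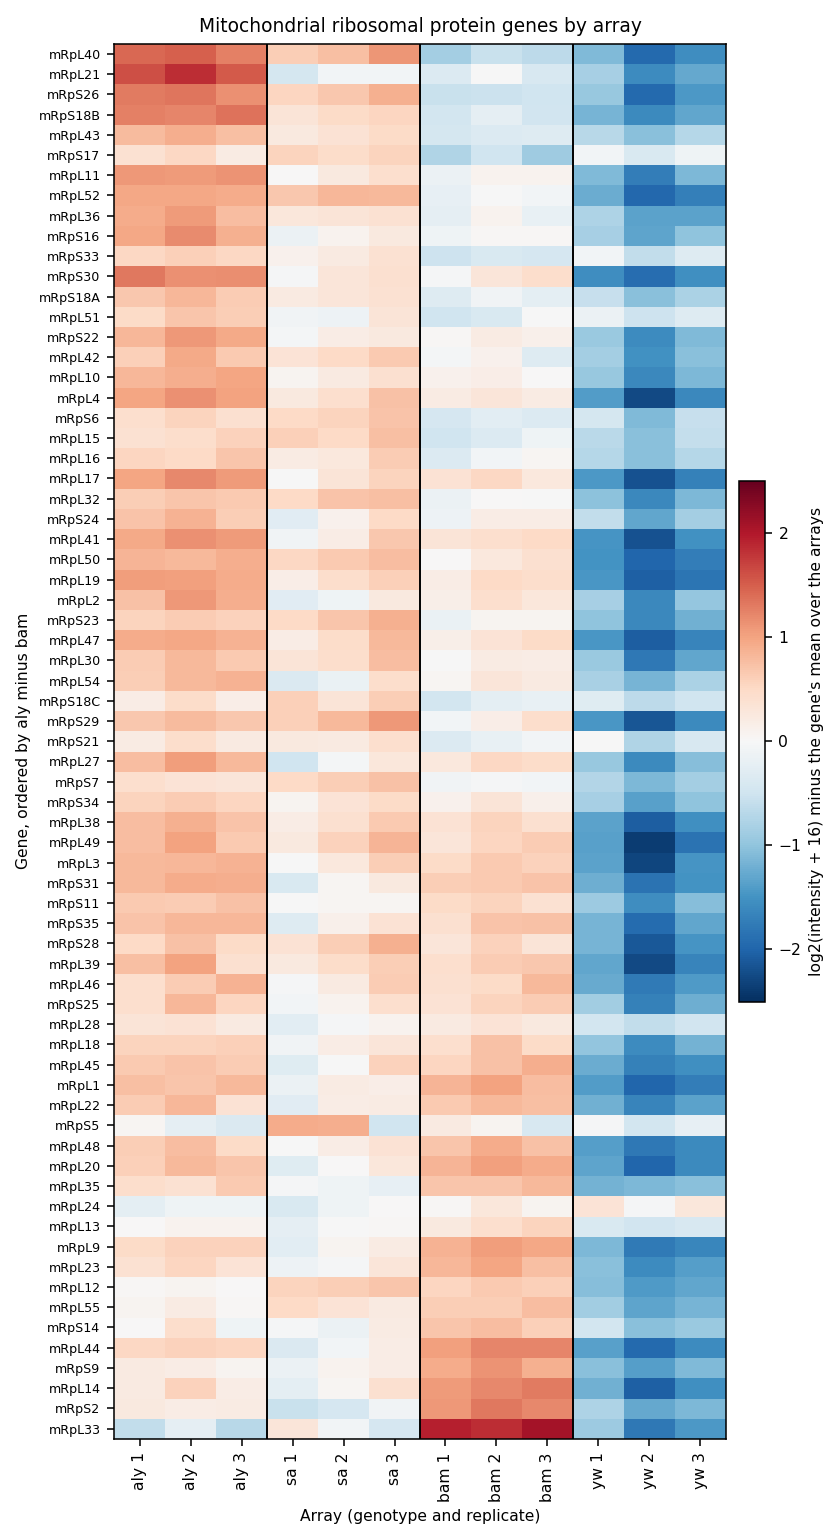
Deposited scale, log2(intensity + 16) minus the gene's mean over the 12 arrays, for 69 mitoribosomal genes (rows, ordered by aly minus bam) in 3 arrays each of aly, sa, bam and yw (columns). The yw columns are lowest in nearly every row, and the contrast between aly and bam changes sign from the top of the order to the bottom.

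A gene was called higher or lower where limma's Benjamini-Hochberg adjusted p, over all 11982 genes, was under 0.05 and the difference was at least 2-fold. In aly minus yw, 58 of 69 mitoribosomal genes were higher and 0 lower, where 28.3% of all genes were called higher and 15.0% lower. In sa minus yw, 58 were higher and 0 lower, where 23.9% of all genes were higher and 12.9% lower. In bam minus yw, 49 were higher and 0 lower, where 34.2% of all genes were higher and 18.5% lower. Without the fold minimum, at limma's adjusted p under 0.05, 67, 66 and 62 mitoribosomal genes were higher in aly, sa and bam, where 42.8%, 40.9% and 45.7% of all genes were, and 1 was lower in each, where 20.8%, 23.9% and 25.5% of all genes were. The median log2 difference of the 69 genes was 2.04 in aly, 1.48 in sa and 1.61 in bam, while the median of all genes was 0.15, 0.08 and 0.18. Genes at or above the median brightness had medians of 0.93, 0.80 and 0.94, and 48.4%, 42.1% and 48.3% of them were called higher. Every array of the mutant exceeded every yw array in 67 genes in aly, 67 in sa and 62 in bam, where this held for 46.4%, 41.7% and 46.8% of all genes, and every array lay below yw in 1, 0 and 1, where it did for 23.0%, 29.0% and 27.6%. These 3 comparisons share the yw arrays, so they are not independent of each other.

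Gene by gene, 45 of 69 (65.2%) were called higher in all 3 mutants, where 14.7% of all genes were, 14 in a pair of them and 2 in a single one. Shares of all genes called in a pair or in a single mutant are not given here. In 62 genes (89.9%) every one of the 9 mutant arrays exceeded every yw array, where this held for 29.5% of all genes. The yw mean was the lowest of the 4 genotypes in 66 genes (95.7%), against 41.2% of all genes. These shares of all genes include dim genes, while all 69 mitoribosomal genes lay at or above the median brightness. limma's F test over the 4 genotypes passed an adjusted p of 0.05 in 68 of the 69 genes, where 83.7% of all genes passed, and mRpS5 was the exception with an adjusted p of 0.246.

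The size of the difference from yw rested on the scaling of the arrays. With each array centred on the cytosolic ribosomal protein genes in place of the deposited scale, the differences of all genes fell by 1.21 in aly, 1.26 in sa and 1.47 in bam, which put the median of all genes at -1.07, -1.18 and -1.29. Of the mitoribosomal genes, 22, 5 and 5 were then called higher and 2, 1 and 10 lower, where 1116, 352 and 1254 of all 11982 genes were higher and 6377, 6746 and 6678 lower. The mitoribosomal medians were then 0.82, 0.22 and 0.14, and 12, 23 and 32 of the 69 had a difference below 0. With quantile normalisation 56, 48 and 49 were called higher in aly, sa and bam, where 3253, 2341 and 3897 of all genes were. With centring on the median of all genes 60, 39 and 45 mitoribosomal genes were, where 3563, 1791 and 3743 of all were. Without yw replicate 2 the numbers called higher on the deposited scale were 57 in aly, 51 in sa and 45 in bam. Matching counts of all genes without that array are not given here.

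**Figure D2:**
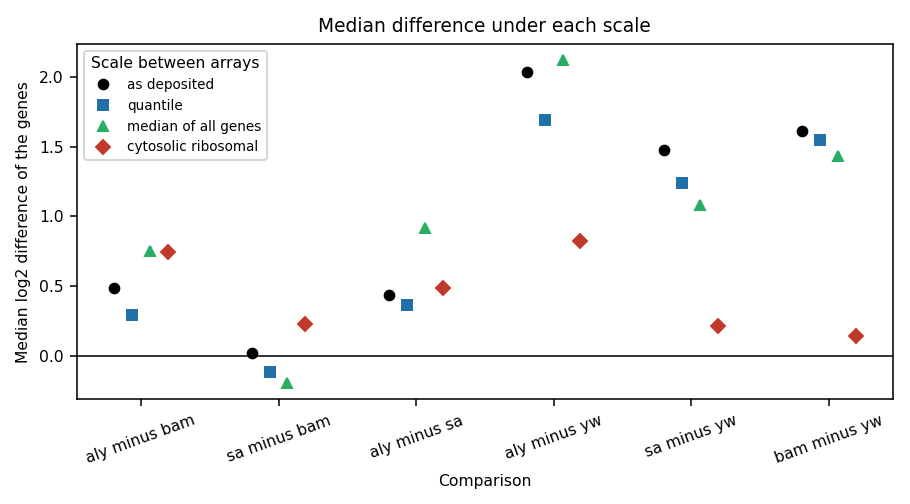
Median log2 difference of the 69 mitoribosomal genes in each comparison under 4 scalings: as deposited, quantile normalised, centred on the median of all genes and centred on cytosolic ribosomal protein genes. Every median against yw is above 0, from 2.12 to 0.14, while that of sa minus bam changes sign with the scaling, from 0.23 to -0.20.

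Among large-subunit genes, 39 of 44 were called higher in aly, 39 in sa and 35 in bam than in yw, with median log2 differences of 2.07, 1.57 and 1.85. mRpL17, which in bacteria has a counterpart near the exit of the peptide tunnel, had intensities of 3828, 4423 and 4045 in aly, 1906, 2408 and 2844 in sa, 2471, 2761 and 2314 in bam, and 698, 412 and 580 in yw. All mutant arrays lay above all yw arrays, with sa and bam overlapping and aly apart from both. Its log2 difference from yw in aly was 2.86 ± 0.19 (SE, limma, adjusted p = 6.60e-08). mRpL1, whose bacterial counterpart forms the mobile stalk beside the exit site of tRNA, had 1489, 1432 and 1557 in aly, 799, 1018 and 987 in sa, 1608, 1793 and 1508 in bam, and 322.5, 209 and 254 in yw. Here aly and bam overlapped, sa lay below both, and yw was lowest. The log2 difference of mRpL1 in bam minus yw was 2.59 ± 0.15 (SE, limma, adjusted p = 1.20e-08).

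mRpL33 and mRpL44 had their highest values in bam. mRpL33, the counterpart of a small bacterial large-subunit protein, had intensities of 519, 691 and 493 in aly, 997, 769 and 599.7 in sa, 3165, 2924 and 3459 in bam, and 422, 222 and 288 in yw. The 3 bam arrays stood far above all others, and the lowest arrays of aly and the highest of yw lay close to each other without overlap. Its log2 difference in bam minus yw was 3.34 ± 0.23 (SE, limma, adjusted p = 8.86e-08), the largest of any mitoribosomal gene in the 6 comparisons. mRpL44, a protein with a ribonuclease III-like fold, had 1592, 1671 and 1615 in aly, 860.5, 1056 and 1269 in sa, 2275, 2599 and 2619 in bam, and 426, 277 and 360.2 in yw. Its 4 genotypes did not overlap, in the order bam, aly, sa and yw, and its log2 difference in bam minus yw was 2.78 ± 0.16 (SE, limma, adjusted p = 1.62e-08).

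Among small-subunit genes, 19 of 25 were called higher in aly, 19 in sa and 14 in bam than in yw, with median log2 differences of 1.66, 1.30 and 1.24, the last of which was -0.23 with centring on cytosolic ribosomal protein genes. mRpS29, the fly counterpart of the GTP-binding protein DAP3, had 3518, 3824 and 3508 in aly, 3323, 3848 and 4659 in sa, 2093, 2447 and 2974 in bam, and 792, 483 and 721 in yw. Its aly and sa arrays overlapped, and both lay above bam, which lay above yw. In sa minus yw it had the largest log2 difference of the 69 genes, 2.56 ± 0.19 (SE, limma, adjusted p = 3.47e-07). mRpS30, named for the small subunit but placed in the large subunit of the mammalian mitoribosome, had 3253, 2884 and 2915 in aly, 1271, 1590 and 1710 in sa, 1269, 1591 and 1763 in bam, and 428, 334 and 437 in yw. Its sa and bam arrays overlapped almost fully, with aly above and yw below them, and its log2 difference in aly minus yw was 2.88 ± 0.15 (SE, limma, adjusted p = 1.08e-08).

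The mRpS18 genes are 3 paralogs, mRpS18A, mRpS18B and mRpS18C, whose proteins take different places in the ribosome. In the mammalian mitoribosome the B and C forms sit in the small subunit and the A form in the large one. mRpS18B had 6415, 6186 and 6850 in aly, 3323, 3707 and 3832 in sa, 1932, 2281 and 1905 in bam, and 1178, 874 and 1073 in yw. Its genotypes did not overlap, in the order aly, sa, bam and yw, and its log2 differences from yw were 2.63, 1.79 and 0.96 (SE 0.12 each) in aly, sa and bam.

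mRpS18A kept that order at smaller distances, with 4716, 5269 and 4606 in aly, 3457, 3643 and 3828 in sa, 2356, 2774 and 2477 in bam, and 1972.5, 1424 and 1700.1 in yw. Its log2 differences from yw were 1.52, 1.10 and 0.58 (SE 0.12 each). mRpS18C had 2087, 2550 and 2069 in aly, 2779, 2316 and 2827 in sa, 1346, 1560.2 and 1628 in bam, and 1484, 1159 and 1297 in yw. For this paralog aly and sa overlapped, and so did bam and yw, with log2 differences from yw of 0.76, 1.00 and 0.20 (SE 0.13 each). mRpS18C in sa minus yw sat at the fold minimum and was lost without yw replicate 2 (0.92), and mRpS18A in sa minus yw was lost too (0.98). Centred on cytosolic ribosomal protein genes, 6 of the 9 differences of the mRpS18 genes from yw turned below 0. These were mRpS18C in aly (-0.45), sa (-0.26) and bam (-1.27), mRpS18A in sa (-0.16) and bam (-0.89), and mRpS18B in bam (-0.51).

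**Figure D3:**
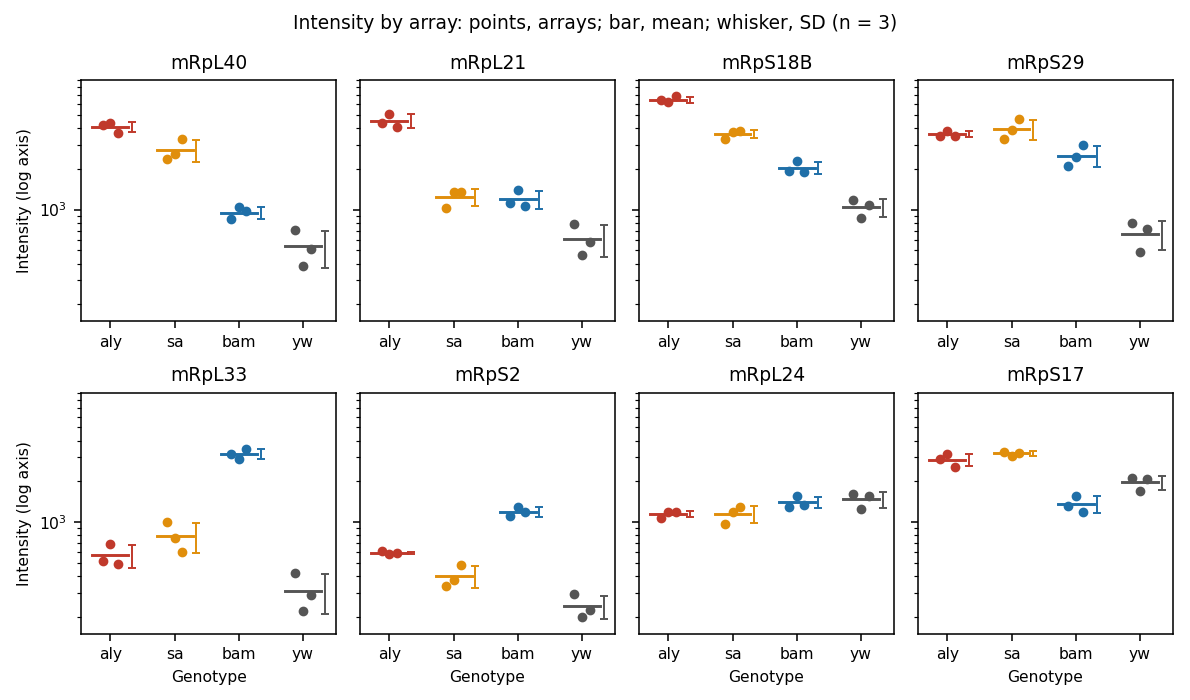
Intensity (log axis) of 8 mitoribosomal genes in each array (points), with the mean (bar) and SD (whisker) of 3 arrays per genotype, aly, sa, bam and yw from left to right. mRpL40, mRpL21 and mRpS18B are highest in aly, mRpL33 and mRpS2 are highest in bam, and mRpL24 is not called in any mutant.

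In 8 of the 69 genes no mutant was called different from yw: mRpL13, mRpL24, mRpL28, mRpL51, mRpS5, mRpS17, mRpS21 and mRpS33. The share of all genes called in no mutant is not given here. In the single comparisons, 11, 11 and 20 of the 69 were not called in aly, sa and bam, where 6794, 7573 and 5663 of all 11982 genes were not. Some of the 8 passed limma's adjusted p of 0.05 under the fold minimum. mRpL13 did so in all 3 mutants, with log2 differences of 0.483, 0.355 and 0.829 in aly, sa and bam. mRpL24 had 1072, 1193 and 1179 in aly, 974, 1187 and 1287 in sa, 1303, 1562 and 1340.0 in bam, and 1616, 1249.7 and 1554 in yw. It was the one gene with its highest mean in yw, although yw replicate 2 lay below all bam arrays and within the sa range, and its log2 difference in aly minus yw was -0.35 ± 0.13 (SE, limma, adjusted p = 0.0343). mRpS17, a primary rRNA-binding protein in bacteria, had 2898, 3170.2 and 2567 in aly, 3293, 3076 and 3262 in sa, 1314, 1564 and 1186 in bam, and 2127, 1705 and 2064.5 in yw. For mRpS17 the yw arrays lay between aly and sa above and bam below, and its log2 difference in bam minus yw was -0.53 ± 0.12 (SE, limma, adjusted p = 0.00207), under the fold minimum.

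mRpS33, a protein with no bacterial counterpart, had 2673, 2823 and 2686 in aly, 2011, 2182 and 2448 in sa, 1312, 1441 and 1386 in bam, and 1783.5, 1217.5 and 1487 in yw. Its bam arrays fell within the yw range. mRpS5, whose bacterial counterpart lines the entry channel of the message, had 1365, 1129.9 and 1014.5 in aly, 2506, 2490 and 924 in sa, 1549, 1383 and 997.5 in bam, and 1292, 949 and 1135 in yw. The sa arrays split, with replicates 1 and 2 above all other arrays and replicate 3 below them.

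Between the arrest mutants and bam, few mitoribosomal genes were called. On the deposited scale their shares were near or below those of all genes. In aly minus bam, 10 of 69 (14.5%) were called higher and 1 (1.45%) lower, where 16.3% of all genes were higher and 18.7% lower. In sa minus bam, 3 (4.35%) were higher and 4 (5.8%) lower, where 20.5% of all genes were higher and 20.6% lower. Among genes at or above the median brightness these shares were 28.9% and 21.3% in aly, and 30.9% and 23.5% in sa. Without the fold minimum 37 of the 69 were higher and 12 lower in aly, where 28.9% and 30.1% of all genes were. In sa 20 of the 69 were higher and 21 lower, where 31.3% and 36.3% of all genes were. The median log2 difference of the 69 genes was 0.49 in aly and 0.02 in sa, against 0.04 and -0.09 for all genes, and the value in sa was below 0 with quantile normalisation (-0.12) and with centring on the median of all genes (-0.20). Every aly array exceeded every bam array in 43 genes and lay below in 14, where 36.2% and 33.5% of all genes did so, and for sa these numbers were 21 and 21, where 33.3% and 42.7% of all genes did so. The 2 comparisons share the bam arrays.

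The genes called higher in aly than in bam were mRpL11, mRpL21, mRpL36, mRpL40, mRpL43, mRpL52, mRpS16, mRpS17, mRpS18B and mRpS26. mRpL40, a large-subunit protein specific to mitochondria, had 4181, 4370.5 and 3692 in aly, 2351, 2586 and 3317 in sa, 846, 1039.6 and 970.2 in bam, and 708, 385 and 516 in yw. Both arrest mutants lay above bam with aly highest, and bam lay above yw. Its log2 difference from bam was 2.08 ± 0.20 in aly (SE, limma, adjusted p = 2.57e-06) and 1.51 ± 0.20 in sa (adjusted p = 3.31e-05).

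mRpS26, a small-subunit protein specific to mitochondria, showed the same order, with 6238, 6439 and 5600.0 in aly, 3681, 4012 and 4692 in sa, 1714, 1743 and 1781 in bam, and 1299, 645 and 923.5 in yw. Its log2 difference from bam was 1.79 ± 0.20 in aly (SE, limma, adjusted p = 9.80e-06) and 1.23 ± 0.20 in sa (adjusted p = 1.84e-04). With mRpS17 (1.08 in aly and 1.24 in sa), these were the mitoribosomal genes called higher than bam in both arrest mutants.

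The 4 genes called lower in sa than in bam were mRpL14, mRpL33, mRpL44 and mRpS2. mRpL33 fell by 2.47 on the log2 scale in aly (SE 0.23, limma, adjusted p = 2.49e-06) and by 2.02 in sa (SE 0.23, adjusted p = 1.14e-05), which made it the one gene called lower than bam in both. mRpS2, whose bacterial counterpart binds the back of the small subunit near the exit of the message, had 608, 584 and 587.5 in aly, 340.4, 377 and 481 in sa, 1103, 1304 and 1186 in bam, and 293, 200.7 and 226 in yw. Its 4 genotypes did not overlap, with log2 differences from bam of -0.99 ± 0.15 in aly and -1.56 ± 0.15 in sa (SE, limma, adjusted p = 1.04e-04 and 1.97e-06). mRpL14, whose bacterial counterpart lies at the contact between the subunits, had 611, 778 and 595 in aly, 435.5, 537.5 and 693 in sa, 1105, 1216 and 1293 in bam, and 216, 114 and 168 in yw. Its aly and sa arrays overlapped, and its log2 difference from bam was -0.86 ± 0.21 in aly and -1.12 ± 0.21 in sa (SE, limma, adjusted p = 0.00452 and 6.49e-04). Without sa replicate 1, the value in sa was -0.96, under the fold minimum.

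**Figure D4:**
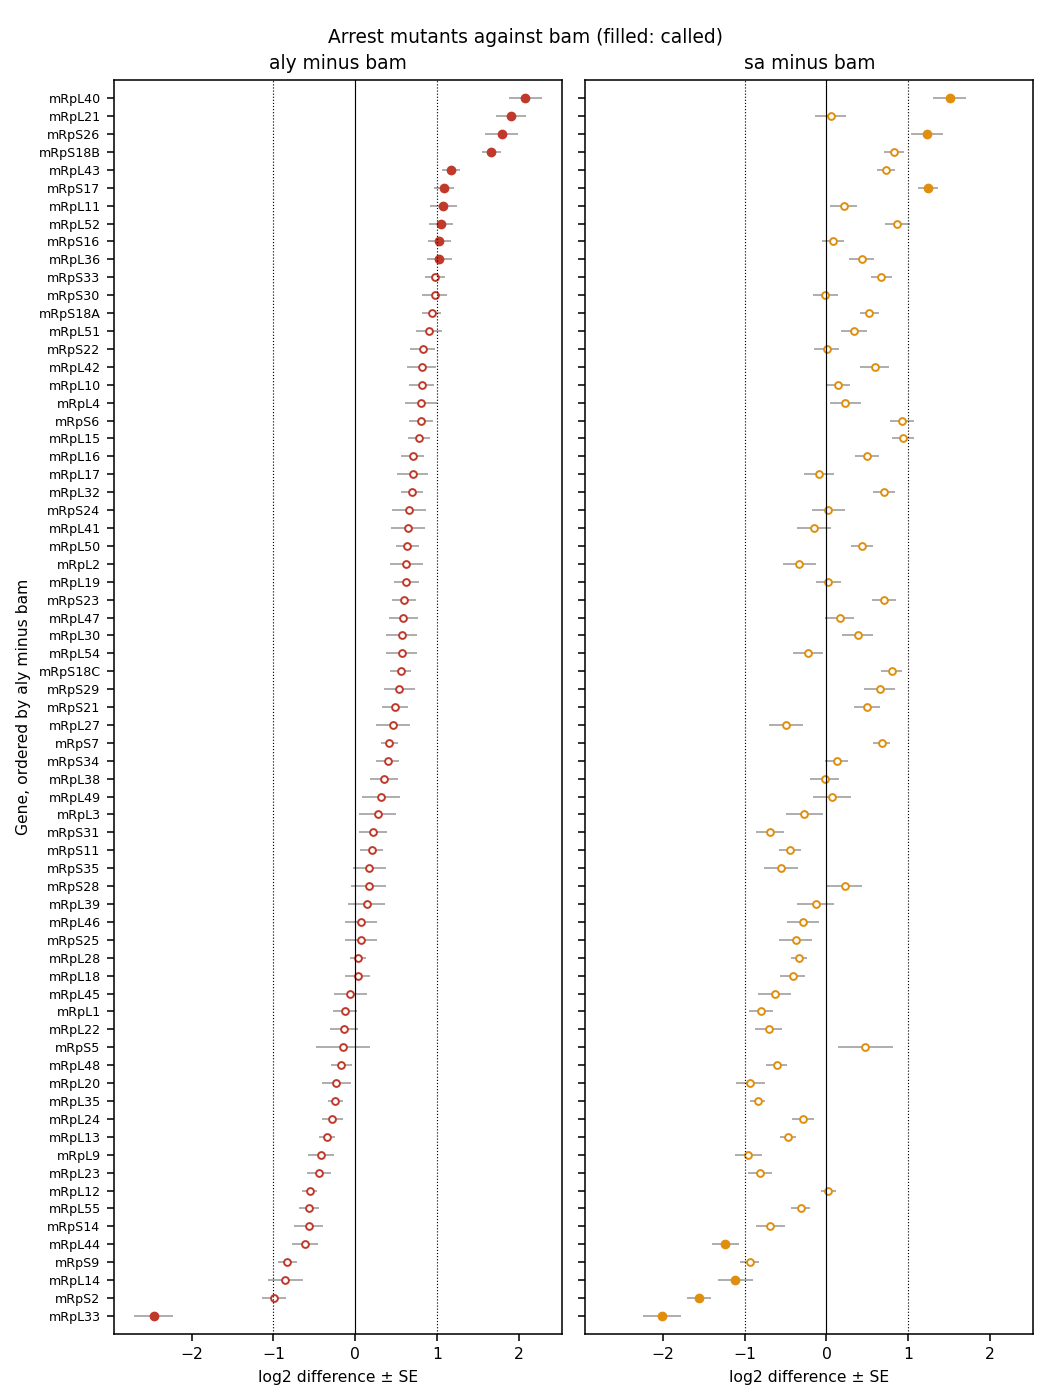
log2 difference from bam of each mitoribosomal gene (± SE of the limma fit), aly left and sa right, with filled points where a gene was called and dotted lines at a 2-fold difference. In aly 10 genes are called higher and 1 lower, and in sa 3 are called higher and 4 lower.

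Those counts depended on single arrays and on scaling. The number higher in aly than in bam was 5 with quantile normalisation, and 20 both with centring on the median of all genes and with centring on cytosolic ribosomal protein genes, where 1970, 2411 and 2410 of all 11982 genes were higher. The number lower in sa than in bam was 8 with quantile normalisation and 10 with centring on the median of all genes, where 2649 and 3012 of all genes were lower, and the number higher was 8 with centring on cytosolic ribosomal protein genes, where 2785 of all genes were higher. Leaving out bam replicate 1 left 6 genes higher in aly than in bam, and leaving out sa replicate 3 gave 7 lower in sa than in bam. How the counts of all genes moved without these arrays is not given here. All 6 testis muscle markers were called lower than bam in both arrest mutants, and the part of muscle in these values was not tested.

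In aly minus sa a single mitoribosomal gene was called, mRpL21, which was higher, where 7.9% of all genes were higher and 11.9% lower. Without the fold minimum 35 were higher and 1 lower, where 30.1% and 22.7% of all genes were, and the median log2 difference was 0.44 against 0.10 for all genes. Every aly array exceeded every sa array in 44 genes and lay below in 3, where 40.7% and 25.7% of all genes did so. mRpL21, whose bacterial counterpart is an rRNA-binding protein of the large subunit, had 4340.2, 5099 and 4094 in aly, 1031, 1339.5 and 1343 in sa, 1112, 1407 and 1064 in bam, and 781, 464 and 573 in yw. The 3 aly arrays stood alone, while sa and bam overlapped above yw. Its log2 difference was 1.86 ± 0.19 in aly minus sa (SE, limma, adjusted p = 8.75e-06), 1.91 ± 0.19 in aly minus bam (adjusted p = 3.51e-06) and 0.05 in sa minus bam.

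mRpL12 was the gene lower in aly than in sa without the fold minimum. It is the counterpart of the bacterial stalk protein that recruits translation factors, and it had 3054, 3159.8 and 3035 in aly, 4404, 4579 and 4869.6 in sa, 4355, 4719.9 and 4557 in bam, and 1435, 1118 and 1218 in yw. Its sa and bam arrays overlapped, with aly below both and yw lowest, and its log2 difference in aly minus sa was -0.58 ± 0.09 (SE, limma, adjusted p = 3.31e-04). Next after mRpL21 on the high side were mRpS30 (0.99), mRpL27 (0.96) and mRpL2 (0.96), the last a counterpart of a bacterial protein at the peptidyl transferase centre. The number called higher was 8 without sa replicate 3 and 2 without sa replicate 2, and the matching counts of all genes are not given here. With each array centred on the median of all genes it was 31, where 2395 of all 11982 genes were higher, against 946 on the deposited scale.

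Across the 4 genotypes, aly had the highest mean in 40 of the 69 genes (58.0%), against 28.6% of all genes. In 30 of them (43.5%, against 15.4% of all genes) every aly array exceeded every other array. The bam mean was highest in 16 genes (23.2%, against 36.2% of all genes). In 12 (17.4%, against 25.8% of all genes) every bam array exceeded every other: mRpL9, mRpL13, mRpL14, mRpL20, mRpL23, mRpL33, mRpL35, mRpL44, mRpL55, mRpS2, mRpS9 and mRpS14. All of these but mRpL44 and mRpL55 carry a number that bacterial ribosomal proteins also use, as 40 of the 69 genes do. The sa mean was highest in 12 genes (17.4%, against 11.1% of all genes). Of these, mRpS7 alone was clear of every other array (1.45%, against 5.13% of all genes). The yw mean was highest in 1 (1.45%, against 24.2% of all genes). Here too the shares of all genes include dim genes, and shares of genes of like brightness are not given.

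Genes whose number bacterial ribosomal proteins also use and genes with higher numbers, most of them specific to mitochondria, are given apart. Of the 40 with a bacterial-type number, 31 were called higher in aly, 32 in sa and 26 in bam than in yw, with median log2 differences of 1.83, 1.35 and 1.44, the last of which was -0.03 with centring on cytosolic ribosomal protein genes. Of the 29 with higher numbers, 27, 26 and 23 were called higher, with medians of 2.17, 1.75 and 1.90. The difference between these classes was not tested. Against bam, the median of the large-subunit genes was 0.41 in aly and -0.14 in sa, and that of the small-subunit genes was 0.54 in aly and 0.22 in sa. The large-subunit value in sa was 0.07 with centring on cytosolic ribosomal protein genes.

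A pair of mitoribosomal genes with other symbols stood outside the naming rule. tko, the small-subunit protein known from bang-sensitive mutants, had 2366, 2675 and 2728 in aly, 1907, 1664 and 2403 in sa, 1523, 1947 and 1725 in bam, and 752, 426 and 559 in yw. bonsai, another small-subunit protein, had 2725, 2698 and 2792 in aly, 2296, 2685 and 3249 in sa, 3268, 3909.5 and 3927 in bam, and 969, 784 and 926 in yw. In both genes every mutant array lay above every yw array, and bonsai was highest in bam. The log2 differences from yw in aly, sa and bam were 2.16, 1.77 and 1.58 for tko and 1.61, 1.59 and 2.03 for bonsai, all called higher, and neither gene was called against bam.

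The factors that work with the mitochondrial ribosome included genes called in both directions. Of 9 mitochondrial translation factors, 6 were called higher and 1 lower in aly than in yw, 4 higher and 1 lower in sa, and 2 higher and 2 lower in bam, with median log2 differences of 1.63, 0.37 and 0.49. With centring on cytosolic ribosomal protein genes these medians were 0.41, -0.89 and -0.98, and that in sa was also below 0 with centring on the median of all genes (-0.03). The paralogous genes mEFTu1 and mEFTu2, which encode forms of the elongation factor that brings aminoacyl-tRNA to the ribosome, differed in direction. mEFTu1 averaged 4209 ± 190.2 in aly, 2487 ± 739 in sa, 3757 ± 239 in bam and 679 ± 126 in yw (SD, n = 3 each), and mEFTu2 averaged 745 ± 37.7, 949.8 ± 153 and 802 ± 82.5 in aly, sa and bam and 4199 ± 472 in yw. Every mutant array lay above every yw array for mEFTu1 and below every yw array for mEFTu2, with log2 differences of 2.62, 1.82 and 2.46 for mEFTu1 and of -2.46, -2.13 and -2.36 for mEFTu2. Their common exchange factor mEFTs was also highest in yw, at 4561 ± 208 in aly, 4762 ± 313 in sa, 1614 ± 164 in bam and 7294 ± 718 in yw.

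Against bam, 5 of the 9 translation factors were called higher and 0 lower in aly, while 1 was higher and 1 lower in sa. The initiation factor gene mIF3 had 1106, 1011.5 and 1213 in aly, 242, 290.4 and 332 in sa, 126, 189.5 and 168 in bam, and 127, 74.8 and 133 in yw. The 3 aly arrays stood far above the rest, and bam and yw overlapped. Its log2 difference in aly minus bam was 2.68 ± 0.20 (SE, limma, adjusted p = 3.64e-07).

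Of 14 mitochondrial aminoacyl-tRNA synthetases, which charge the tRNAs used in the organelle, 11 were called higher and 1 lower in aly than in yw, 8 higher and 1 lower in sa, and 10 higher and 3 lower in bam. Their median log2 differences from yw were 2.00, 1.07 and 1.29, and with centring on cytosolic ribosomal protein genes 0.78, -0.19 and -0.18. TrpRS-m and CysRS-m were highest in yw: TrpRS-m averaged 3572 ± 234 in aly, 2961 ± 170.3 in sa, 592 ± 55.5 in bam and 5101 ± 648 in yw, and CysRS-m 1074 ± 36.8, 1422 ± 178 and 613 ± 126 in aly, sa and bam and 4966 ± 561 in yw (SD, n = 3 each). Against bam, 6 were called higher and 2 lower in aly, and 4 higher and 4 lower in sa. At the extremes, ValRS-m had a log2 difference of 3.89 in aly minus bam and 3.14 in sa minus bam, while IleRS-m had -2.34 and -2.77, with limma adjusted p of at most 2.17e-07 in each case.

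Of 14 genes for mitochondrial transcription and RNA processing, 13 were called higher in aly, 11 in sa and 9 in bam than in yw and 0 lower, with median log2 differences of 2.17, 1.41 and 1.69. PolrMT, the mitochondrial RNA polymerase, averaged 1052 ± 73.8 in aly, 791 ± 66.2 in sa, 317 ± 49.1 in bam and 156 ± 22.8 in yw (SD, n = 3 each). Its genotypes did not overlap, and its log2 difference in aly minus bam was 1.69 ± 0.13 (SE, limma, adjusted p = 5.18e-07). Against bam, 5 of the 14 were higher and 1 lower in aly, and 3 were higher and 3 lower in sa.

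Of 5 genes of mitochondrial DNA maintenance, 5 were called higher in aly, 4 in sa and 5 in bam than in yw, with median log2 differences of 1.81, 1.07 and 2.83. With centring on cytosolic ribosomal protein genes the median in sa was -0.19. mtSSB, the single-strand binding protein of mitochondrial DNA replication, had 608, 695 and 612 in aly, 322, 412 and 522.5 in sa, 6959, 7311 and 6107 in bam, and 202, 135 and 189 in yw. The bam arrays stood far above all others, with a log2 difference of 5.17 ± 0.18 in bam minus yw, -3.38 ± 0.18 in aly minus bam and -3.99 ± 0.18 in sa minus bam (SE, limma, adjusted p = 1.41e-10, 1.85e-08 and 2.66e-09). mtDNA-helicase, the replicative helicase of the organelle, averaged 156 ± 6.17 in aly, 88.4 ± 21.9 in sa, 479 ± 60.8 in bam and 33.2 ± 3.41 in yw. Against bam 1 of the 5 genes was higher and 2 lower in aly, and 0 were higher and 4 lower in sa.

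Cytosolic ribosomal protein genes, the counterparts that build the ribosomes of the cytosol, were also higher in the mutants than in yw: 23 of 29 in aly, 25 in sa and 27 in bam, with median log2 differences of 1.27, 1.29 and 1.44. With centring on the median of all genes 24, 9 and 26 of the 29 were called higher than yw. Against bam 0 of the 29 were called by limma in either direction in aly or sa. Their medians were -0.26 and -0.18 on the deposited scale, and that in aly was 0.01 with centring on the median of all genes. By construction, both were close to 0 with centring on the list itself. A list of 12 paralogs of these genes was kept apart. Of the 12, 8, 9 and 9 were called higher and 3, 3 and 3 lower than yw in aly, sa and bam. Against bam 0 of the 12 were higher and 2 lower in aly, and 2 were higher and 2 lower in sa. Nuclear genes for subunits of oxidative phosphorylation, which meet the products of the mitochondrial ribosome in the inner membrane, were called higher than yw in 26 of 52 cases in aly, 22 in sa and 22 in bam, and lower in 0, 0 and 1, with medians of 0.99, 0.87 and 0.77, which became -0.22, -0.39 and -0.70 with centring on cytosolic ribosomal protein genes. The 22 paralogs of such subunits, kept as a separate list, ran the other way, with 16 called lower in aly, 16 in sa and 20 in bam, 2, 2 and 1 higher, and medians of -4.64, -1.98 and -6.25.

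**Figure D5:**
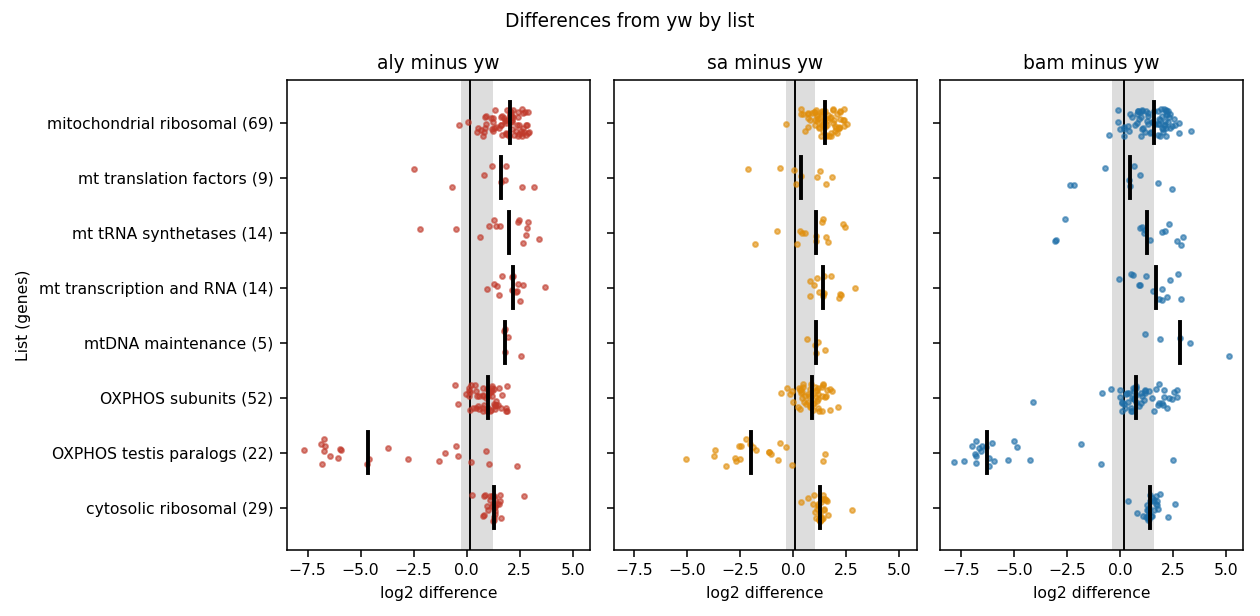
log2 difference from yw of each gene (points) of 8 gene lists in aly, sa and bam, on the deposited scale, with the median of each list (black tick), the median of all genes (line) and their interquartile range (grey band). The medians of the mitoribosomal genes are 2.04, 1.48 and 1.61, and those of the oxidative phosphorylation paralogs are -4.64, -1.98 and -6.25; centring on cytosolic ribosomal protein genes lowers every point by 1.21, 1.26 and 1.47.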

How the data were processed

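RNA from testes of 12 samples, 3 biological replicates of each of 4 genotypes per the series' design text, was measured on Affymetrix arrays. The deposited values are on a linear intensity scale. The series' design text says that raw data were exported from the Affymetrix suite and that CEL files were normalised with RMA through limma, and the submitters' processing notes name MAS5, RMA and limma, with no version in the sources used here. Which of these made the deposited intensities is not stated. They were therefore used as deposited, and background correction and scanner files were not used here. RMA or MAS5 signals both include signal from related sequences, so paralogs can share signal.

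Of 18952 probe sets, 183 controls were left out. Of the other 18769, 13647 had a single gene symbol in the platform annotation, 402 had several and 4720 had none; 13544 were matched to RefSeq (assembly Release 6) by Entrez number, which changed 0 symbols. The brightest probe set stood for each of 11982 genes (1094 had more than 1). limma 3.58.1 in R 4.3.3 was fitted to log2(intensity + 16) of all 12 arrays with genotype as the factor, lmFit and eBayes, and Benjamini-Hochberg adjustment over all genes. A fold change on this scale understates the change of dim genes. A call needed an adjusted p under 0.05 and a 2-fold difference. The number of arrays limits the precision. Levels of different probe sets were not compared. The fit was tested on simulated data. Figures were drawn with matplotlib 3.10.9.

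The members and all gene lists were chosen with earlier results of these data known. The genes named come from the groups that follow, and some genes of these groups are not named. The groups are the 4 most positive and 4 most negative members in each comparison, called members that went against the majority, and the mRpS18 paralogs. tko and bonsai were added, with up to 3 genes per pathway list with the largest absolute differences in aly minus bam, sa minus bam or bam minus yw. Members with the largest and smallest means were also in the rule and were left out. Others are named as members of a count or as the extremes of a list. Alternatives were pseudocounts of 1 and 64, quantile normalisation, centring on all genes or on cytosolic ribosomal proteins, a stricter threshold of 0.01, no fold minimum, the replicate number as a block, and leaving out each array.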

Additional observations from a re-analysis of the deposited data

Results flagged for a closer look

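A pair of probe sets for mitoribosomal genes was left out of the measurements because a brighter probe set stood for the same gene, and both showed a difference from yw. The second probe set of mRpL47, a large-subunit protein, averaged an intensity of 3969 ± 346 in aly, 2443 ± 456 in sa, 2227 ± 167 in bam and 524 ± 142 in yw (SD, n = 3 each). Its log2 differences from yw were 2.92 in aly, 2.21 in sa and 2.09 in bam, against 2.64, 2.21 and 2.05 for the probe set used. The second probe set of mRpS11, a small-subunit protein, averaged 1558 ± 49.3 in aly, 1033 ± 42.3 in sa, 1424 ± 166 in bam and 532 ± 82.7 in yw (SD, n = 3 each). Its log2 differences from yw were 1.53 in aly, 0.95 in sa and 1.40 in bam, against 1.85, 1.20 and 1.65 for the probe set used, so that sa fell under the 2-fold minimum. Groups of 3 arrays are too small for a test of single outlying values.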

How the results depend on the processing

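Counts are of mitoribosomal genes called higher or lower, and medians are of their log2 differences. Quantile normalisation gave 5 higher and 3 lower in aly minus bam with a median of 0.29, 8 lower in sa minus bam, and a median of 1.69 in aly minus yw. With arrays centred on the all-gene median there were 20 higher and a median of 0.75 in aly minus bam, 10 lower and a median of -0.20 in sa minus bam, 31 higher and a median of 0.92 in aly minus sa, and a median of 1.08 in sa minus yw. Centring on cytosolic ribosomal protein genes gave 20 higher and a median of 0.74 in aly minus bam, 8 higher and a median of 0.23 in sa minus bam, 4 higher in aly minus sa, 22 higher, 2 lower and a median of 0.82 in aly minus yw, 5 higher, 1 lower and 0.22 in sa minus yw, and 5 higher, 10 lower and 0.14 in bam minus yw. With that centring 13 named values changed sign: mRpS5, mRpL13, mRpS17 and mRpS18C in aly minus yw (-1.16, -0.73, -0.67 and -0.45), mRpL13, mRpL51, mRpL28, mRpS18A and mRpS18C in sa minus yw (-0.91, -0.90, -0.81, -0.16 and -0.26), and mRpL51, mRpS18A, mRpS18B and mRpS18C in bam minus yw (-1.44, -0.89, -0.51 and -1.27). With centring on the all-gene median 7 did: tko in sa minus bam (-0.026), mRpL33, mRpS7 and mRpS18C in aly minus sa (0.03, 0.22 and 0.24), mRpL13 and mRpL51 in sa minus yw (-0.042 and -0.031), and mRpL51 in bam minus yw (-0.15). Centring adds a constant to every difference of a comparison. Quantile normalisation turned bonsai in aly minus sa (-0.11) and mRpS5 in aly minus yw (-0.13). With replicates 1 and 2 of every genotype, mRpL24 (0.006) and mRpL51 (-0.11) turned in bam minus yw. Of these values, mRpS18A and mRpS18C in sa minus yw were called on the deposited scale. A pseudocount of 1 gave 2 lower in aly minus bam. With replicates 1 and 2 of every genotype, 7 were lower in sa minus bam and 6 higher in aly minus sa; the cause was not tested. With no fold minimum, 37 were higher and 12 lower in aly minus bam, 20 and 21 in sa minus bam, 35 and 1 in aly minus sa, and 1 was lower in each comparison with yw.

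Counts with an array left out are of mitoribosomal genes only, and those of all genes are not given here. Leaving out each array in turn gave 6 to 13 higher, 1 to 2 lower and medians of 0.41 to 0.56 in aly minus bam. It gave 3 to 4 higher, 3 to 7 lower and medians of -0.09 to 0.11 in sa minus bam, and 1 to 8 higher, 0 to 1 lower and 0.34 to 0.54 in aly minus sa. Against yw it gave 57 to 62 higher and medians of 1.81 to 2.18 in aly, 51 to 58 and 1.32 to 1.60 in sa, and 45 to 54 and 1.42 to 1.75 in bam, with 0 lower throughout, and the F test passed in 67 to 69 genes. Signs also changed within the ranges of bonsai in aly minus sa (-0.109 to 0.14), mRpS5 in aly minus yw (-0.06 to 0.159), and mRpS33 (-0.238 to 0.034), mRpL24 (-0.18 to 0.004) and mRpL51 (-0.117 to 0.13) in bam minus yw. The replicate numbers did not pair the samples: same-numbered arrays had deviations that correlated between -0.416 and 0.481, and 3 of 12 arrays were closest to their own number. With the replicate block the counts were 10 higher and 1 lower in aly minus bam, 3 and 4 in sa minus bam, 1 and 0 in aly minus sa, and 58, 58 and 49 higher against yw, as without it. Of 2706 values of named genes under all alternatives, 2581 kept direction and side of the threshold, 71 passed it newly, 22 lost it and 32 changed sign. The lowest intensity of a mitoribosomal gene on any array was 114, above every array median, and detection calls were not used here.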
